A study of Bos taurus with 9 samples.

Results

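SLC4A11 is a membrane transporter gene that is read on this bovine array by a single probe set, out of 24016 outside the manufacturer's controls. It is 1 of 9155 genes that have a probe set of their own, and its probe set was taken because the platform annotation assigns it to SLC4A11 and to no other gene. The gene itself was chosen by its intensity in these same arrays, so its values are given as a description and carry no test. The arrays hold cultured nucleus pulposus cells, which fill the soft centre of an intervertebral disc, from caudal discs of young calves. In all groups the cells grew in DMEM with fetal bovine serum. In 1 group salt was added to a final 500 mOsm/kg for 24 h, in another to the same osmolality for 5 h, and the control cells were left untreated. Each group has 3 arrays, numbered 1 to 3 as biological replicates. The labels name neither the salt nor the animals behind each culture, so p-values measure only the spread between these cultures. The controls carry no time of harvest and serve both comparisons, so time in culture and salt cannot be told apart.

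SLC4A11 belongs by sequence to the SLC4 family, whose best known members carry bicarbonate across membranes to set cell and tissue pH. It is the outlier of that family in function: in cells made to express it, it has been described as a carrier of proton or hydroxide equivalents and of ammonia, and as a path for water, and not as a bicarbonate carrier. It is best known from the corneal endothelium, the pumping layer that keeps the cornea clear, where loss of the human gene causes swelling of the cornea. Mice without the gene also pass large volumes of dilute urine, which ties it to water balance in the kidney. Nucleus pulposus cells live in a matrix whose charged aggrecan draws in cations and water, so the osmolality around them is high and changes with load on the disc.

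The deposited values are linear intensities, and the median probe set of an array read between 67.1 and 84.5. Component 1 of a principal component analysis, with 47.7% of the variance, set the 3 arrays numbered 3 apart from the other 6. Component 2, with 31.1%, set the 24 h arrays, at -52.0 to -36.3, apart from the others, at 0.011 to 30.7, where control replicate 1 was the nearest to them. Of all probe sets tested, limma called 8.61% for 24 h minus control, 0.483% for 5 h minus control and 14.2% for 24 h minus 5 h. With the replicate numbers as a block these shares were 35.8%, 5.86% and 43.8%. Among nucleus pulposus markers, ACAN (aggrecan) averaged 2995, 1053 and 1261 at 24 h, at 5 h and in control, and COL2A1 (type II collagen) averaged 130.3, 121 and 182. The keratins KRT8, KRT18 and KRT19, markers of notochord-like cells, averaged at most 21.4 in any group. Of these 5 markers 3 were tested and 0 were called at 24 h, but with the block ACAN was called higher by 1.35 (limma adjusted p = 0.00041). Their summed intensity was 1573 to 4289 at 24 h, 667 to 1506 at 5 h and 567 to 2531 in control. The other 6 markers of that list had no single-gene probe set and were not analysed here.

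SLC4A11 was dim in untreated cells, a little brighter after 5 h in salt and bright after 24 h. Its intensity was 1805.4, 1914.1 and 1503.2 in replicates 1, 2 and 3 at 24 h. It was 99.9, 31.2 and 98.6 at 5 h, and 29.2, 10.7 and 15.7 in control. All 24 h arrays lay above all 5 h arrays, with a gap of 1403 intensity units between the groups. Such a separation was seen in 18.1% of the 18012 probe sets tested, and in 13.9% for 24 h above control. All 5 h arrays lay above all control arrays too, but there the gap was only 2.0 units, between 5 h replicate 2 and control replicate 1. That separation was seen in 4.04% of probe sets, and its reverse, all 5 h arrays below control, in 6.6%. Of the probe sets tested, 82 (0.455%) had the 3 groups in this order with no overlap.

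The mean intensity was 1741 ± 213 at 24 h, 76.6 ± 39.3 at 5 h and 18.5 ± 9.6 in control (SD, n = 3 each). The coefficient of variation was 12.2% at 24 h, against 51.3% at 5 h and 51.6% in control, so the spread was proportionally smaller where the signal was strong. Read against the other probe sets of the same array, SLC4A11 was brighter than 94.1% to 95.7% of them at 24 h. At 5 h it was brighter than 55.6%, 36.2% and 56.5% of them, and in control than 33.3%, 18.8% and 25.6%. It thus stood below the array median in all 3 control arrays and in 5 h replicate 2, just above it in the other 5 h arrays, and at 20.1 to 22.7 times the median at 24 h.

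**Figure D1:**
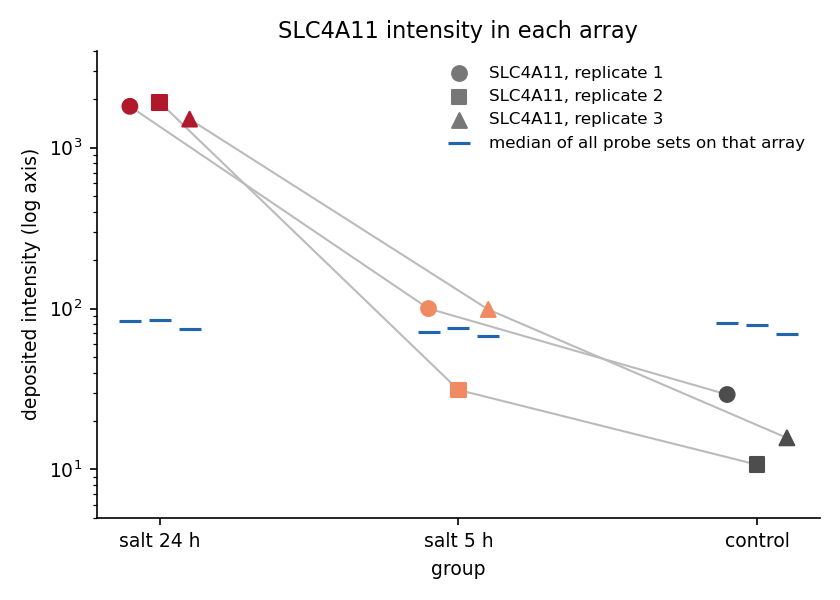
Deposited intensity of SLC4A11 (log axis) in each array by group, with marker shapes and grey lines joining arrays of the same replicate number and blue bars for the median probe set of each array. The 24 h arrays lie between 1503.2 and 1914.1, far above the medians, while control arrays lie at 29.2 or less, below them.

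The ratio of mean intensities was 93.9 for 24 h over control, with a lowest ratio between any 24 h and any control array of 51.5 and a highest of 179. It was 22.7 for 24 h over 5 h, with a range of 15.0 to 61.3, and 4.13 for 5 h over control, with a range of 1.07 to 9.34. These ratios divide by intensities near the low end of the array, where background makes up part of the reading, so their size is uncertain. On a log2(intensity + 16) scale, which damps such low values, the difference was 5.70 ± 0.36 for 24 h minus control (SE, 3 arrays per group). It was 4.35 ± 0.36 for 24 h minus 5 h and 1.34 ± 0.36 for 5 h minus control. The median difference of all probe sets tested was 0.023, 0.057 and -0.030 in these comparisons, which share arrays.

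How much of the 24 h change was already there at 5 h depended on the scale. On the log2 scale the 5 h difference from control was 23.6% of the 24 h difference. In intensity units it was 3.37%, and by replicate number 3.98%, 1.08% and 5.57%. In bulk RNA, more transcript per cell and more cells that carry it cannot be told apart.

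The replicate numbers were taken as pairs, which the labels do not state. Within them SLC4A11 was higher at 24 h than in control by 5.33, 6.18 and 5.58 on the log2 scale in replicates 1, 2 and 3. At 5 h it was higher than in control by 1.36, 0.82 and 1.85. The difference of 24 h minus 5 h was 3.97, 5.35 and 3.73. Replicate 2 had the lowest SLC4A11 intensity of its group at 5 h and in control, and the highest at 24 h. It had the smallest early and the largest late difference of the 3.

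Among the 18012 probe sets, SLC4A11 had the highest difference for 24 h minus control, overall and in each of the 3 replicate pairs. It stood 1.17 above the next probe set, for which the annotation gives no gene and which differed by 4.53. For 24 h minus 5 h it also ranked 1, but only by 0.21, and in the single pairs it ranked 2, 2 and 3, behind probe sets led by ACSS2, FXYD2 and S100G in replicates 1, 2 and 3. Without 24 h replicate 3 it ranked 2. For 5 h minus control it ranked 56, with a higher value than 99.7% of probe sets, and in the pairs it ranked 85, 190 and 40. That rank moved with single arrays: it was 35 without 5 h replicate 2, 125 without 5 h replicate 3, 88 without 5 h replicate 1 and 86 without control replicate 2. By plain difference of mean intensity, which favours bright probe sets, SLC4A11 ranked 72 for 24 h minus control, 76 for 24 h minus 5 h and 2227 for 5 h minus control.

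**Figure D2:**
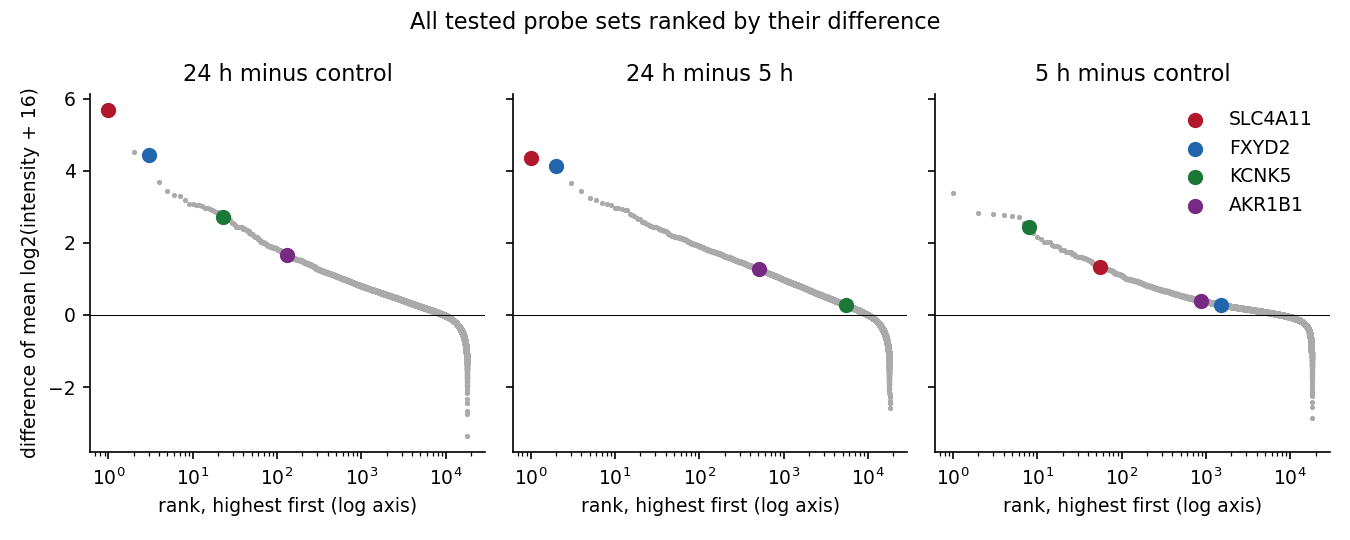
All 18012 tested probe sets, ranked by their difference of mean log2(intensity + 16) (vertical axis) against rank with the highest first (log axis), in the 3 comparisons. SLC4A11 stands clear of the curve for 24 h minus control, shares its top with FXYD2 for 24 h minus 5 h, and sits at rank 56 for 5 h minus control, below KCNK5.

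Few probe sets spanned the same range of intensity. Of the 24016 probe sets, 6282 had a control mean no higher than that of SLC4A11. Of these, 18 reached a mean of 100 at 24 h, and SLC4A11 was the only one to reach 500. It was also the only probe set of all with a control mean below 100 and a 24 h mean of at least 1000. The round levels of 100, 500 and 1000 were picked after the values were seen.

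The named genes next below it for 24 h minus control were FXYD2, a regulator of the sodium pump, at 4.43 and SERPINA1, a secreted protease inhibitor, at 3.43. They were followed by ACSS2, which makes acetyl-CoA from acetate, at 3.32, the calcium-binding S100G at 3.30 and the stress-induced nuclear protein gene NUPR1 at 3.20. FXYD2 read 446.1, 670.3 and 242.0 at 24 h, 17.0, 0.1 and 11.9 at 5 h, and 5.6, 3.3 and 3.6 in control. So FXYD2 too was near the floor in control, but unlike SLC4A11 its 5 h and control arrays overlapped. NUPR1 was the one of these with a large early difference, of 1.74 for 5 h minus control, while SERPINA1, ACSS2 and S100G had -0.017, -0.33 and 0.11. For 24 h minus 5 h the next named genes were FXYD2 (4.14), ACSS2 (3.65), SERPINA1 (3.45), S100G (3.19) and APOD, an apolipoprotein gene (3.12). The APOD value is that of 1 probe set, which averaged 207.9 at 24 h and 8.8 at 5 h. A brighter APOD probe set differed less in proportion, at 2754.2, 2523.6 and 2967.5 at 24 h and 954.0, 1507.0 and 630.0 at 5 h. These genes were named for their rank, so their differences are a description.

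Of the other SLC4 family members only 4 could be tested, too few for their calls to be told from the shares over all probe sets. Of the 9 other family genes listed, 6 had a probe set and 4 passed the filter on low values; 0 of these 4 were called by limma at 24 h, against 4.28% of all probe sets called higher and 4.32% called lower. With the replicate numbers as a block in the fit, those shares were 18.3% and 17.5%, and again 0 of the 4 were called. For 5 h minus control and 24 h minus 5 h 0 were called too, beside 0.483% and 14.2% of all probe sets. SLC4A2, an anion exchanger, averaged 393 ± 67 at 24 h, 393.7 ± 90 at 5 h and 326 ± 70 in control (SD, n = 3 each). Its log2 difference at 24 h was 0.26 ± 0.24 (limma adjusted p = 0.60). SLC4A7, a sodium-bicarbonate cotransporter, averaged 347 ± 150 at 24 h, 417 ± 88 at 5 h and 439.6 ± 163 in control. Its log2 difference at 24 h was -0.35 ± 0.33 (limma adjusted p = 0.63).

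The spread of these family genes followed the replicate number. SLC4A7 was brightest in the arrays numbered 3, at 520.3 at 24 h, 517.7 at 5 h and 625.6 in control, while SLC4A2 was dimmest there in every group. SLC4A3 read 1.0, 0.9 and 3.4 in the arrays numbered 3 at 24 h, at 5 h and in control, and between 13.2 and 24.5 in the other 6 arrays. For SLC4A11 the arrays numbered 3 were the lowest of their group at 24 h alone. SLC4A4, an electrogenic sodium-bicarbonate cotransporter, and SLC4A9 passed the filter but averaged at most 21.4 in any group. Their log2 differences at 24 h were 0.18 ± 0.15 and -0.039 ± 0.17. SLC4A3 and SLC4A1, the red cell anion exchanger, stayed below the filter and were not tested.

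**Figure D3:**
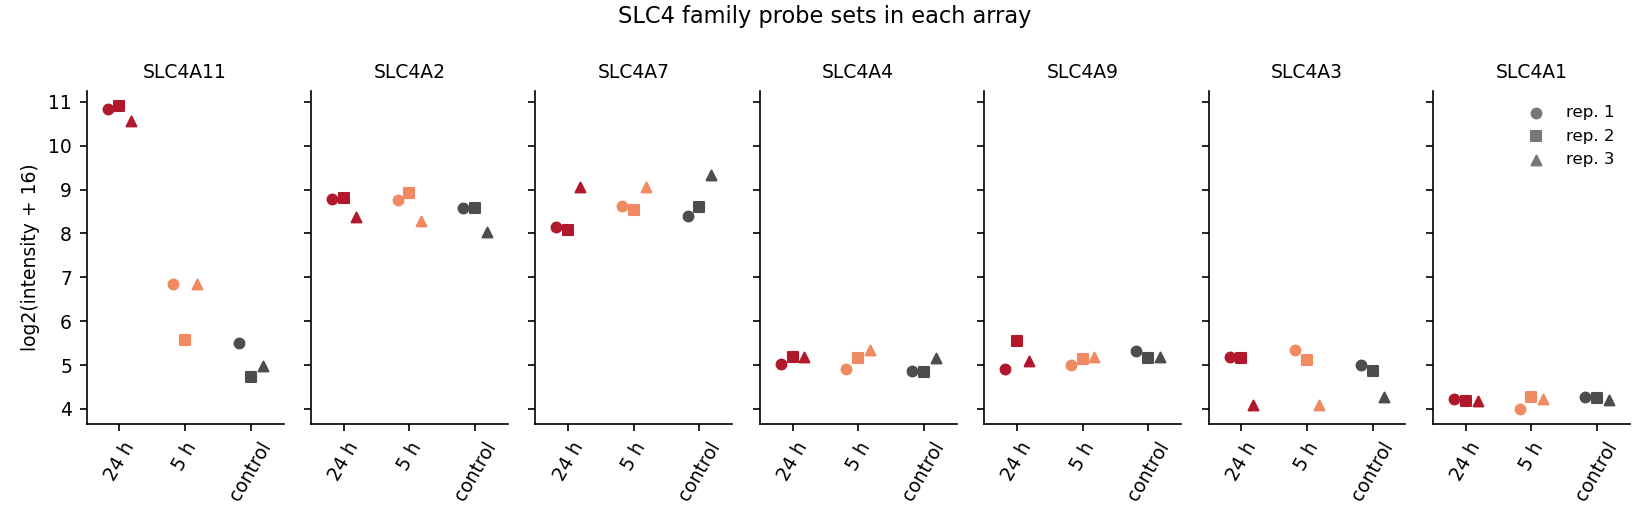
log2(intensity + 16) of the 7 SLC4 family probe sets in each array, 1 panel per gene, with colour for group and marker shape for replicate number; levels are not comparable between panels. SLC4A11 alone has its 24 h arrays far above the others, while SLC4A7, SLC4A2 and SLC4A3 separate by replicate 3.

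The wider set of acid-base and anion transport genes held 45 bicarbonate, anion, proton and lactate transporters and carbonic anhydrases beside SLC4A11. Of 21 with a probe set 15 were tested. At 24 h 2 fell and 0 rose, beside 4.32% of all probe sets called lower and 4.28% higher. For 15 genes the absence of rises is near that share. The median difference was 0.031 against 0.023 over all probe sets. Both that fell were monocarboxylate transporters, which carry lactate with a proton. SLC16A1 read 234.7, 263.5 and 150.4 at 24 h, against 675.9, 705.3 and 474.9 in control, and fell by 1.46 ± 0.27 on the log2 scale (limma adjusted p = 0.016). SLC16A3, the lactate exporter of glycolytic cells, read 421.1, 322.9 and 442.1 at 24 h, against 711.7, 1063.0 and 1015.7 in control, and fell by 1.19 ± 0.22 (limma adjusted p = 0.017). In both genes every 24 h array lay below every control array, as in 13.5% of all probe sets, and below every 5 h array, as in 14.3%. The call of SLC16A1 ended without control replicate 2 or 24 h replicate 1 (adjusted p = 0.073 and 0.058). That of SLC16A3 ended without either of these (0.074 and 0.061), without control replicate 3 (0.059) and without 24 h replicate 2 (0.054).

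With the replicate block, 2 of these 15 genes rose at 24 h and the same 2 fell, beside 18.3% and 17.5% of all probe sets. Those that rose were the carbonic anhydrase CA2 (0.50, limma adjusted p = 0.046) and the sodium-proton exchanger SLC9A5 (0.50, adjusted p = 0.015). Both were picked out after their values were seen. At 5 h, 0 of the 15 were called with or without the block, where 0.233% of all probe sets were called higher and 0.25% lower (2.45% and 3.41% with the block). For 24 h minus 5 h, 1 of the 15 rose, SLC9A5, and 2 fell, SLC16A1 and SLC16A3, against 8.01% and 6.15% of all probe sets; with the block 2 rose and 2 fell, against 24.2% and 19.6%.

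Ammonium and glutamine handling is a role proposed for SLC4A11 in the corneal endothelium. Of 17 such genes listed, 12 were tested and 1 fell at 24 h, beside 4.32% of all probe sets called lower. The gene that fell was the glutamine importer SLC1A5, at 817.4, 676.8 and 671.5 at 24 h, against 2507.0, 1922.1 and 1394.6 in control. It fell by 1.37 ± 0.25 (limma adjusted p = 0.015), a call that ended without control replicate 2 (0.063) or 24 h replicate 1 (0.053). With the block 2 members fell, beside 17.5% of all probe sets. GLS2, 1 of the 12, averaged 30.4 at 24 h, 14.3 at 5 h and 18.2 in control. It passed the filter only through its 24 h arrays, so the list gets no median and no count of rises at 24 h here, with or without the block. The ammonia channel genes RHAG and RHCG stood at 0.17 ± 0.30 and -0.12 ± 0.26 and averaged at most 64.7 in any group. At 5 h 1 member rose, beside 0.233% of all probe sets called higher. It was the amino acid transporter SLC38A2, at 0.88 (limma adjusted p = 0.030), named here after its value was seen.

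Of 11 water channels 6 had a probe set and 2 passed the filter. AQP1, the water channel of many endothelia and of the renal proximal tubule, averaged 671 at 24 h, 255 at 5 h and 344 in control. It read 734.7, 329.4 and 949.6 at 24 h and 419.8, 143.0 and 469.0 in control, so the groups overlapped, while each replicate number was higher at 24 h than its own control. Its log2 difference of 0.97 ± 0.60 was not called (limma adjusted p = 0.40), but was with the replicate block (0.00037). AQP7, a glycerol-conducting channel, read at most 21.9 on average and was not called.

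Antioxidant genes moved both ways at 24 h: of 13 tested, 2 rose and 1 fell, with a median of 0.095, and with the block 6 rose and 4 fell. Of all probe sets 4.28% rose and 4.32% fell, and 18.3% and 17.5% with the block. SOD2, the mitochondrial superoxide dismutase, read 1865.1, 1642.0 and 2477.9 at 24 h, against 612.1, 633.1 and 778.0 in control, and rose by 1.53 ± 0.17 (limma adjusted p = 0.0039). CAT, catalase, rose by 0.43 ± 0.10 (limma adjusted p = 0.033). The peroxiredoxin PRDX1 fell by 0.45 ± 0.079 (limma adjusted p = 0.014). The SOD2 call was kept in all 9 refits that left out 1 array. The CAT call was kept in 2, those without 5 h replicate 2 or 5 h replicate 3, and in the others the adjusted p ran up to 0.109, and it ended with each array centred on its median (0.078) and in the fit to the 6 arrays compared (0.078). The PRDX1 call was kept in 6, and ended without control replicate 2 (0.063), control replicate 3 (0.0503) or 24 h replicate 1 (0.064).

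KCNK5 and AKR1B1, from the lists of ion transport and of osmotic stress genes, differed in their timing. KCNK5, a potassium channel that takes part in volume regulation, read 248.8, 149.4 and 259.6 at 24 h, 216.3, 140.5 and 170.3 at 5 h, and 21.6, 14.8 and 19.4 in control. It rose at 24 h by 2.73 ± 0.24 (limma adjusted p = 0.0021) and at 5 h by 2.46 (adjusted p = 0.0065), and its 24 h and 5 h arrays overlapped. AKR1B1, aldose reductase, which makes the osmolyte sorbitol, read 3570.1, 4809.4 and 3086.9 at 24 h, 1536.0, 1720.8 and 1415.7 at 5 h, and 1162.6, 1380.5 and 999.7 in control. It rose by 1.67 ± 0.19 at 24 h (limma adjusted p = 0.0038). At 5 h its difference of 0.40 had limma adjusted p = 0.74, and 0.028 with the replicate block. KCNK5 is on a list of 12 other ion transport genes, of which 8 passed the filter. FXYD2, on the same list, passed it only through its 24 h arrays and is described above by its rank, so the list gets no count or median here. Of 5 osmolyte and osmotic stress genes tested of 9 listed, AKR1B1 and the heat shock gene HSPA1A rose, with a median of 0.83, beside 4.28% of all probe sets that rose; the HSPA1A difference was 1.11 ± 0.25 (limma adjusted p = 0.031). Its call was kept in 4 of 9 refits, and ended without control replicate 2 (0.116), control replicate 3 (0.085), 5 h replicate 1 (0.057), 24 h replicate 1 (0.074) or 24 h replicate 2 (0.083), and in the fit to the 6 arrays compared (0.057). With the block 4 of the osmotic stress genes rose, beside 18.3% of all probe sets. These lists were drawn up with earlier results of the same arrays known, so their directions are not independent evidence.

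**Figure D4:**
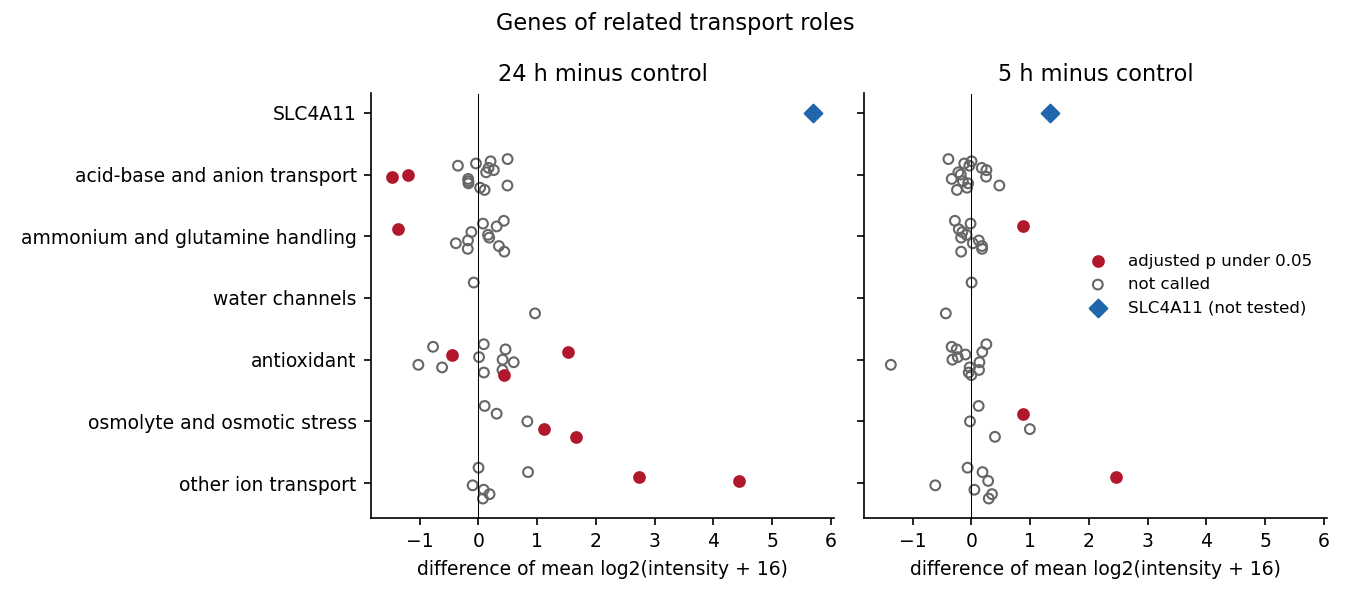
Difference of mean log2(intensity + 16) for each tested gene of the 6 related lists, for 24 h minus control and 5 h minus control, with filled red points for limma adjusted p under 0.05 and open points for genes not called. SLC4A11 (blue diamond, not tested) lies at 5.70 and 1.34, right of every listed gene at 24 h, the nearest of which is FXYD2, chosen by rank, while KCNK5 lies beyond it at 5 h.

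Of the genes around SLC4A11 on its chromosome, 1 of 10 rose. In the order of genes of the ARS-UCD2.0 assembly, the 5 nearest on each side with a single-gene probe set were MAVS, AP5S1, ADISSP, HSPA12B and ATRN before it, and ITPA, DDRGK1, LZTS3, AVP and OXT after it, up to 15 listed genes away. All 10 passed the filter, 1 was called higher and 0 lower at 24 h, beside 4.28% and 4.32% of all probe sets, and their median difference was 0.13. ITPA, the adjacent gene on that side, which clears abnormal purine nucleotides, averaged 535 ± 51 at 24 h, against 553 ± 93 in control. DDRGK1, a regulator of protein modification at the endoplasmic reticulum, averaged 707 ± 55 at 24 h, against 712 ± 23 in control (SD, n = 3 each). LZTS3, the third gene on that side, read 187.3, 171.8 and 243.6 at 24 h, against 85.7, 71.0 and 100.8 in control, and rose by 1.09 ± 0.21 (limma adjusted p = 0.020). That call ended without control replicate 2 (0.088), 24 h replicate 1 (0.072) or 24 h replicate 3 (0.056). AVP and OXT, the genes of the hormones vasopressin and oxytocin, had differences of 0.15 ± 0.22 and 0.026 ± 0.30. With the replicate block LZTS3 rose and ADISSP, which encodes a secreted signalling protein of fat tissue, fell (-0.60, limma adjusted p = 0.0081), beside 18.3% and 17.5% of all probe sets.

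Over the 9 arrays, 72 other probe sets had a Pearson r with SLC4A11 of 0.95 or more on the log2(intensity + 16) scale, and 96 had one of -0.95 or less. The 9 points fall into 3 groups and share arrays with the differences above, so r mostly measures a step at 24 h and is given as a description. Among named genes with a range of at least 1 on that scale, the 10 most alike were AGFG2 (r = 0.989), PTGES (0.984), ITGB3 (0.984), MED25 (0.983) and CAMK2D (0.982), then IGFALS (0.981), NPRL2 (0.978), STK38 (0.978), TFDP2 (0.977) and FXYD2 (0.976). Their roles are varied. PTGES makes prostaglandin E, ITGB3 is an integrin subunit, MED25 a subunit of the Mediator complex, CAMK2D a calcium-dependent kinase, NPRL2 a brake on growth signalling by amino acids, STK38 a kinase, TFDP2 a partner of E2F transcription factors and IGFALS a binding protein of growth factor complexes in blood.

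These genes shared the shape of SLC4A11 but not its size. Their log2 differences for 24 h minus control ran from 0.91 for NPRL2 to 4.43 for FXYD2, with only FXYD2, AGFG2 (3.04) and PTGES (2.52) above 2. Their 5 h difference was between 6.47% (FXYD2) and 27.7% (MED25) of the 24 h difference, beside 23.6% for SLC4A11. AGFG2, which encodes an ArfGAP-domain protein, read 3535.8, 2743.3 and 2482.7 at 24 h, 689.3, 361.7 and 620.1 at 5 h, and 497.1, 301.9 and 252.7 in control. As with SLC4A11, 5 h replicate 2 was the lowest of the AGFG2 values at 5 h. The same held for every one of these genes, which were picked by correlation over these arrays. PTGES read 121.5, 95.8 and 130.3 at 24 h, 14.9, 4.0 and 19.4 at 5 h, and 11.5, 2.9 and 6.8 in control, and was also lowest in replicate 2 of each group.

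The set depended on the measure of likeness. By Spearman's rho, 3 of these 10 genes (AGFG2, NPRL2 and TFDP2) stayed among the 10 most alike. By the root mean square difference of the profiles from their control means, which counts size as well as shape, 2 did (FXYD2 and AGFG2), and NUPR1, SERPINA1 and CRYAB came next to them. A further IGFALS probe set had r = 0.003, and a further MED25 probe set 0.51. The 3 further ITGB3 probe sets had r = 0.60, 0.73 and -0.29, so these 3 names rest on 1 probe set each. Of the falling genes, those with the r nearest to -1 were ALG6 (-0.986) and CDC6 (-0.984), genes of protein glycosylation and of DNA replication licensing.

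**Figure D5:**
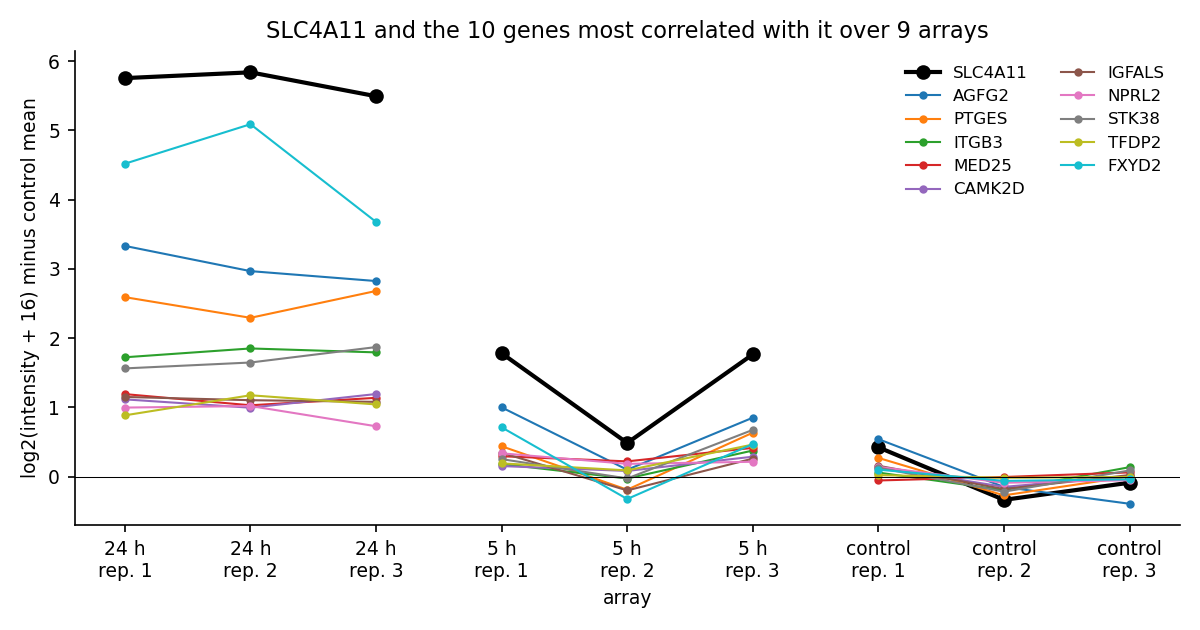
log2(intensity + 16) minus the control mean in each of the 9 arrays for SLC4A11 (black) and the 10 named genes most correlated with it. All are higher at 24 h than in control, with SLC4A11 the highest on each 24 h array. SLC4A11 and all 10 genes, which were picked by correlation over these arrays, have their lowest 5 h value at replicate 2.

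Among markers of other cell types, EPCAM, ITGAM, TNMD and MYH1 were near the floor. KRT14 and VWF were low too, averaging at most 11.6 and 16.8 in any group, while some other members of the lists were bright. CDH2, of the corneal endothelial list, averaged 1387, 2006 and 1638 at 24 h, at 5 h and in control. In the same order the epithelial KRT5 averaged 623, 419 and 434, and the fibroblast COL1A1 2290, 2451 and 2952. CKM, COL12A1, THY1 and CD14 were called higher at 24 h. Of all probe sets, 4.28% were called higher and 4.32% lower at 24 h, and 18.3% and 17.5% with the block. Of 5 epithelial markers 0 of 3 tested were called, EPCAM averaged at most 2.8 in any group, and their summed intensity was 649 to 767 at 24 h, 438 to 518 at 5 h and 473 to 499 in control. With the block KRT5 was called higher at 24 h (0.50, limma adjusted p = 0.0044). Of 3 corneal endothelial markers with a probe set 0 were called, and their sum was 1142 to 1771 at 24 h, 1687 to 2547 at 5 h and 1449 to 2089 in control. Of the 6 leukocyte markers CD14 was called higher, and ITGAM averaged 3.8 or less. The sum of the 6 was 387 to 429 at 24 h, 192 to 212 at 5 h and 186 to 203 in control. PTPRC averaged 26.7 at 24 h, 16.9 at 5 h and 14.6 in control, and CSF1R 16.9, 33.2 and 14.8. PTPRC passed the filter only through its 24 h arrays and CSF1R only through its 5 h arrays. The leukocyte list therefore gets no count of calls here. The 5 endothelial markers had a sum of 150.3 to 191 at 24 h, 124 to 160 at 5 h and 120.3 to 195 in control. Of the 4 tested, PECAM1, CDH5 and KDR were not called at 24 h, with or without the block. TEK, the other of these 4, averaged 29.7 at 24 h, 13.8 at 5 h and 16.1 in control. It passed the filter only through its 24 h arrays, so its values are a description and the endothelial list gets no count of calls here.

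Of 5 annulus and tendon fibroblast markers 2 of 4 tested rose, COL12A1 and THY1, with TNMD at 4.9 or less and a sum of 5440 to 7293 at 24 h, 2786 to 4849 at 5 h and 2643 to 6405 in control. With the block COL1A1 fell (-0.32, limma adjusted p = 0.046). Beside these calls, 4.28% of all probe sets were called higher and 4.32% lower at 24 h, and 18.3% and 17.5% with the block. Of 5 skeletal muscle markers 1 of 4 tested rose, CKM, with MYH1 at 8.5 or less and a sum of 2177 to 3520 at 24 h, 1188 to 3430 at 5 h and 941 to 1096 in control. ACTA1, of the same list, averaged 198 at 24 h and 307 in control, with a difference of -0.60 that was called with the block (limma adjusted p = 0.0023) and not without it (0.157). For actin, the control probe sets at the 3-prime and 5-prime ends of the transcript had a log2 ratio, which grows as RNA or labelled product gets shorter, of 3.84 ± 0.16 at 24 h, 3.07 ± 0.36 at 5 h and 3.12 ± 0.24 in control (SD, n = 3 each). It was higher on every 24 h array than on any other. On those arrays the 5-prime probe set read only 15.1 to 22.5. The same ratio for GAPDH was 0.025 ± 0.016, 0.0063 ± 0.045 and -0.084 ± 0.092. The part of these marker and RNA differences in the SLC4A11 values was not tested.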

How the data were processed

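RNA of 9 cultures was labelled with biotin from an oligo(dT)-T7 primer and hybridised to 1 array each, per the labels' protocols. The deposited table holds linear intensities that the authors, per the submitters' processing notes, made with PLIER in Expression Console of Affymetrix. The sources used here give no versions, settings or normalization between arrays. No further normalization was applied. Of 24128 probe sets, 112 manufacturer controls were left out. Of the other 24016, 13292 carry 1 gene symbol, 86 carry several and 10638 have none listed; 13263 were matched by gene number to the RefSeq gene table of ARS-UCD2.0, which changed 0 symbols. The build behind the array is not given, so no positions are printed, and sequences were not used here. Arrays have no read depth, and their number limits the precision.

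Intensities were taken as log2(value + 16), which understates changes of dim probe sets. Those with the lowest mean, under the 25th percentile, were dropped, which left 18012 probe sets. Group means of all 9 arrays were fitted with limma 3.58.1 in R 4.3.3 (lmFit, eBayes with an intensity trend), and calls were made at an adjusted p (Benjamini-Hochberg, over all 18012) under 0.05. A gene in a list was represented by its brightest single-gene probe set. Without the block, 771 probe sets were called higher and 779 lower for 24 h minus control, 42 and 45 for 5 h minus control, and 1443 and 1108 for 24 h minus 5 h; with each array centred on its median these were 503 and 827, 34 and 23, and 806 and 1608. That centring shifts all 24 h minus 5 h differences by -0.15.

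Deviations from group means of arrays with the same number correlated at 0.56 to 0.90, against -0.78 to 0.54 for other numbers, so the numbers were taken as pairs and a fit with the number as a block was run beside the main one. Between numbers 1 and 2 the margin was small. The r was 0.56 for 5 h replicate 1 with control replicate 1, and 0.54 for 24 h replicate 1 with 5 h replicate 2. The labels state no pairing.

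SLC4A11 and the lists were chosen with earlier results of these data known. Named genes were the 10 most correlated with SLC4A11, the 5 next in rank for 24 h minus control and for 24 h minus 5 h, up to 4 called members of each list, the SLC4 family, the 10 neighbours, AKR1B1, KCNK5 and FXYD2; placeholder symbols were left out. Alternatives were pseudocounts of 1 and 64, no filter, median centring, quantile normalization, leaving out each array, the block, and a fit to the 6 arrays compared.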

Additional observations from a re-analysis of the deposited data

Results flagged for a closer look

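No group holds enough arrays to test a single array as far from its fellows. Of the 23 genes named for neither likeness nor rank, 8 had a 24 h minus 5 h difference past the limma threshold, which tests the difference between the 24 h and 5 h effects, since their shared controls cancel. Of these 8, 6 were named because they were called at 24 h on the same arrays, so their count and their calls here are no independent evidence and only their values are given. They were 1.34 for SOD2 and 0.43 for CAT, both higher at 24 h, and -1.72 for SLC16A1, -1.01 for SLC16A3, -1.16 for SLC1A5 and -0.35 for PRDX1, all lower at 24 h. SLC16A1 had opposite signs at the 2 times, -1.46 at 24 h and 0.25 at 5 h, of which only the first was called. The other 2 were AKR1B1, at 1.27 (limma adjusted p = 0.0052), and LZTS3, at 0.80 (0.039). The AKR1B1 call was kept under every alternative run. That of LZTS3 ended with no filter on low values (0.0514), with each array centred (0.135), with quantile normalization (0.122), in the fit to the 6 arrays compared (0.071) and without any one of 7 arrays, with adjusted p of up to 0.125 without 5 h replicate 1.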

How the results depend on the processing

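SLC4A11 was higher at 24 h and at 5 h than in control under every alternative run. Its 24 h minus control difference was 6.58 with a pseudocount of 1 and 4.45 with 64, 5.63 with each array centred on its median and 5.72 with quantile normalization, and between 5.53 and 5.91 with 1 array left out; it ranked 1 in each of these. Its 5 h minus control difference was 0.73 and its rank 143 with a pseudocount of 64, and 1.13 to 1.77, at ranks 35 to 125, with 1 array left out. For 24 h minus 5 h it was 3.72 with a pseudocount of 64, ranked 2 with a pseudocount of 1, and was 3.92 to 4.57, at ranks 1 to 2, with 1 array left out. The pseudocount acts through the low control and 5 h intensities by its construction.

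The replicate block leaves the SLC4A11 differences as they are, since each number occurs in every group. It raised the probe sets called from 1550 to 6452 for 24 h minus control, from 87 to 1056 for 5 h minus control and from 2551 to 7884 for 24 h minus 5 h, and the called acid-base and anion transport genes from 2 to 4. Fitted to the 6 arrays compared, 792 were called for 24 h minus control and 13 for 5 h minus control. With each array centred, 57 were called for 5 h minus control. With 1 array left out, 296 to 1540 were called for 24 h minus control: 310 and 465 without control replicates 2 and 3, 912 without 5 h replicate 1, and 296, 759 and 894 without 24 h replicates 1, 2 and 3. For 5 h minus control 15 (without 5 h replicate 1) to 127 (without 5 h replicate 2) were called, with 27 or fewer in the 7 refits that left out any control array, 5 h replicate 1 or 3, or 24 h replicate 1 or 2. For 24 h minus 5 h 855 to 2431 were called: 855 and 1415 without 5 h replicates 1 and 2, and 914, 1609 and 1670 without 24 h replicates 1, 2 and 3. The acid-base and anion transport genes called were then 0 to 2: 0 without control replicate 2 or 24 h replicate 1, and 1 without control replicate 3 or 24 h replicate 2. Fewer arrays went into these refits; other causes were not tested. Over the named genes and 3 comparisons, leaving out arrays kept 952 outcomes, ended 64 calls and made 4; the block made 7, and no alternative reversed a direction with a call. No detection calls were used, so how far the low control intensities of SLC4A11 exceed background is unknown.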
